A study of Mus musculus with 10 samples.

Results

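The Sft2d family of the mouse has 3 genes, Sft2d1, Sft2d2 and Sft2d3, and it was read here in single embryos with and without the transcription factor Klf5. The members were taken as every probe set whose platform annotation gives 1 of these names as its only gene symbol. That rule found 6 probe sets, 4 for Sft2d2 and 1 each for Sft2d1 and Sft2d3, for 3 of the 16936 genes named in the table. The family was chosen by the measured difference of Sft2d2 between the genotypes, in the same 10 arrays. The differences of its probe sets between genotypes are therefore given as a description, with no p-value or call, and nothing is supported with them.

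Expression was measured on Affymetrix arrays in 10 mouse embryos collected from the oviduct at 3.0 days post coitum, 1 embryo per array. The 5 wild-type embryos (WT1 to WT5) were labelled Wild Type and the 5 mutant embryos (KO1 to KO5) Klf5 KO. Klf5 is a Kruppel-like zinc finger factor that acts at the time the outer trophectoderm and the inner cell mass are set apart. The labels name no strain, no litter and no deleted exon. Any p-value reflects how single embryos vary, mixed with the noise of the separate amplification and array of each. Each array reads a whole embryo, so fewer cells of a type and less RNA per cell cannot be told apart. Levels are log2(intensity + 16), differences are KO minus WT on that scale, and 5 embryos per genotype limit the precision of each value.

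Sft2d proteins are small membrane proteins with several membrane-spanning segments, and they are named after the yeast protein Sft2. Yeast Sft2 was found through its genetic link to Sed5, the counterpart of syntaxin 5. It acts together with Got1 when vesicles returning from endosomes fuse with the Golgi. Such fusion needs SNARE proteins on vesicle and target, tethers that first hold the vesicle, and coats that bud it from the donor membrane. In a polarising embryo the new outer epithelium sorts its apical and basolateral proteins through the Golgi and endosomes.

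Because the mutated gene encodes a transcription factor of the Kruppel-like family, the stretch just upstream of the start is shown for the members that the RefSeq promoter table lists. Each is the 250 bases before the listed start, written 5′ to 3′ on the gene's strand. The build is GRCm38.p6. The window of Sft2d2 is chr1:165194439-165194688 on the minus strand, before the more upstream of 2 listed starts, and that of Sft2d1 is chr17:8310853-8311102 on the plus strand. Capitals mark matches to CCNCNCCC or its reverse GGGNGNGG, a GC-box and CACCC-like pattern of the kind that Kruppel-like factors and Sp factors are known to bind.
Sft2d2: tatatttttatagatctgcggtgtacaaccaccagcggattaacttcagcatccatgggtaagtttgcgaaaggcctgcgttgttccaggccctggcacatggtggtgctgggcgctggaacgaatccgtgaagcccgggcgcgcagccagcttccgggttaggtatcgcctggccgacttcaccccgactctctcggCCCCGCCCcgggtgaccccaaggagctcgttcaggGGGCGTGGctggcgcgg
Sft2d1: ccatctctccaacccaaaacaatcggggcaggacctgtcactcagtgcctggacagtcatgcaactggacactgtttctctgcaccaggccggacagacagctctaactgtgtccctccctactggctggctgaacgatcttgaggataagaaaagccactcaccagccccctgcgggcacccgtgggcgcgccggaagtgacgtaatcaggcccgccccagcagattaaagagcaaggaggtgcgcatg
The Sft2d2 window held 2 matches, CCCCGCCC at 52 to 45 bases and GGGCGTGG at 17 to 10 bases before the start. The Sft2d1 window held 0 exact matches. It held the stretch cccgcccc, which differs from the pattern at 1 letter and was not counted, so the 0 depends on the exact pattern used. Of 27025 gene promoters of the same length, 45.6% held at least 1 match and 26.9% held 2 or more. The pattern is common, and a match describes letters in a window and not a bound site.

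The embryos followed their labels at the Klf5 probe set with the highest mean intensity, 1451021_a_at, which read between 1096 and 4183 in WT and between 14.0 and 49.2 in KO embryos. Its difference was -6.04 (limma, adjusted p = 0.000162, exact two-sided permutation p = 0.00794, the smallest that 252 relabellings give). A further probe set, 1451739_at, read from 440 to 783 in WT embryos and from 687 to 1246 in KO ones, and the position of the deletion is not in the labels. Of the 23174 tested probe sets, 28 were higher and 57 lower in KO embryos at a limma adjusted p of 0.05. Within each genotype the arrays also fell into 2 technical sets by the bioB hybridisation control, a bacterial transcript. WT1, WT2, WT3, KO1 and KO2 formed the high-bioB set, and WT4, WT5, KO3, KO4 and KO5 the low-bioB set. For actin, the level at the 3′ probe set exceeded that at the middle one by 4.61 in WT4 and 3.96 in WT5, against 2.68 to 3.51 in the other 8 embryos. The 6 trophectoderm and 5 pluripotent inner cell markers checked all passed the level filter. The mean of the trophectoderm markers ran from 10.76 to 11.08 in WT embryos and from 9.29 to 10.21 in KO embryos. Those of pluripotent inner cells averaged from 7.62 to 9.12 in WT embryos and from 8.49 to 9.29 in KO embryos. The 4 primitive endoderm markers averaged from 6.28 to 6.99 in WT and from 6.69 to 7.53 in KO embryos, and 3 of them passed the filter, with Gata4 under it and Sox17 near it (5.87 in WT, 5.85 in KO). Means for 5 blood and immune markers (5.27 to 5.51 in WT, 5.31 to 5.41 in KO) and 3 oviduct markers (5.0 to 5.55, 5.01 to 5.45) lay at or under the filter level of 5.55. Those of 6 cumulus and granulosa markers lay slightly above it (5.80 to 6.06 for WT, 5.83 to 6.07 for KO). The filter was passed by 2 of the 5 blood and immune, 1 of the 3 oviduct and 4 of the 6 cumulus and granulosa markers. The highest WT means among these were 6.66 for Amh, 6.62 for Foxl2 and 6.45 for Lyz2.

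All 6 Sft2d probe sets passed the filter on low values, which left out the probe sets below the 40th percentile of mean level. By mean level the Sft2d2 probe sets stood at the 83.3, 73.1, 79.8 and 62.5 percentiles of the table (1425026_at, 1425027_s_at, 1435141_at and 1435142_at in turn). Sft2d1 stood at the 81.9 percentile and Sft2d3 at the 45.3 percentile, close to the filter. These places describe probe sets, whose brightness depends on the probes, and they do not rank the genes. Over all tested probe sets 0.367% passed the adjusted threshold between genotypes, 0.121% as higher and 0.246% as lower in KO embryos. The family was picked for this contrast, so no count of its passing probe sets is set against that share.

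Sft2d2 was higher in KO embryos at all 4 of its probe sets, but by very different amounts. The differences were 1.51 and 2.20 at 1425026_at and 1425027_s_at, and 0.69 and 0.42 at 1435141_at and 1435142_at. The platform annotation assigns the former pair to one source sequence and the latter pair to another. Within a source the differences lay 0.69 and 0.27 apart, and across the sources 0.82 to 1.78 apart. With a pseudocount of 1 they were 1.61, 2.55 and 0.74 at the first 3 probe sets, so that 1425026_at then lay nearer to 1435141_at than to 1425027_s_at. RefSeq lists 1 coding and 2 non-coding curated transcripts for Sft2d2. Which of them each probe set reads was not tested.

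**Figure D1:**
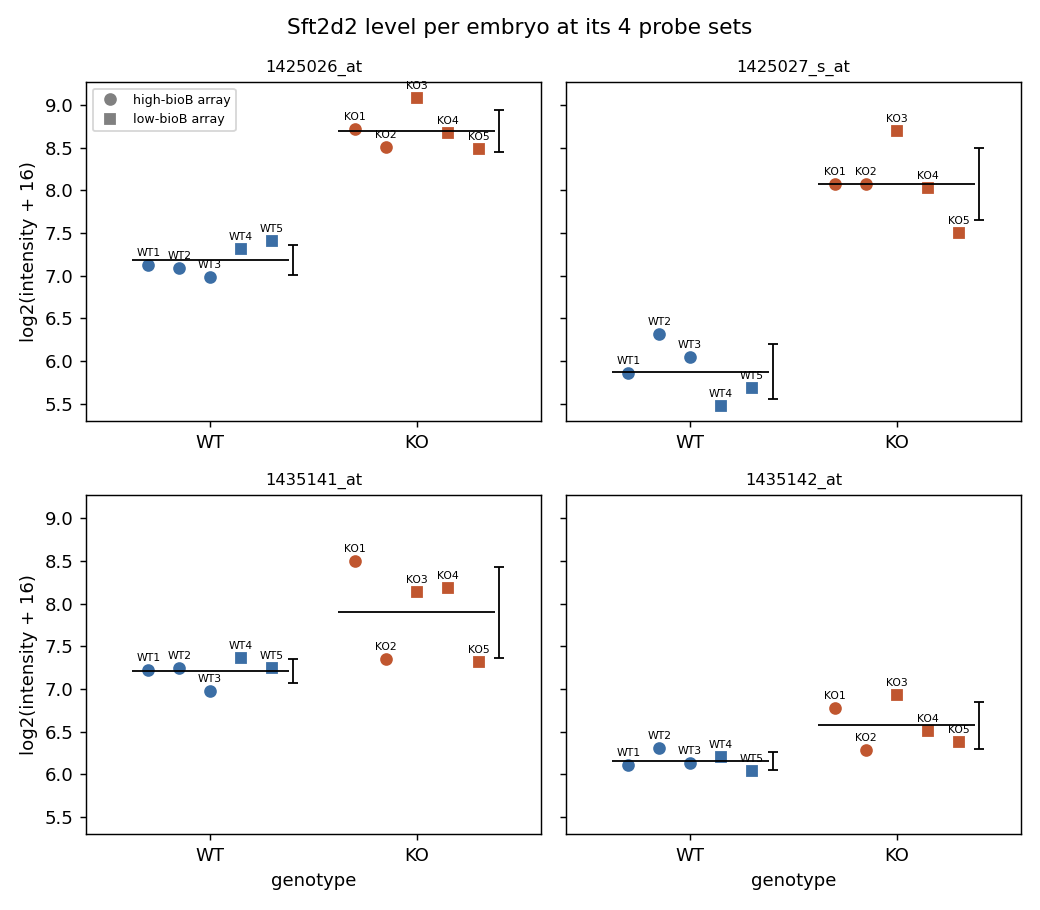
Level of Sft2d2 as log2(intensity + 16) in each of the 10 embryos at its 4 probe sets, by genotype; circles are high-bioB and squares low-bioB arrays, horizontal lines are means and bars are the SD (n = 5). The genotypes are apart at 1425026_at and 1425027_s_at and overlap at the other probe sets, where KO2 lies within the WT range.

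At 1425026_at the intensities were 123, 120, 111, 144 and 154 in WT1 to WT5. In KO1 to KO5 they were 407, 348, 528, 392 and 342. Every KO embryo lay above every WT embryo, and the lowest KO embryo (KO5) read more than the highest WT embryo (WT5) by a wide margin. The WT level was 7.19 ± 0.17 and the KO level 8.70 ± 0.24 (SD, n = 5), a difference of 1.51 with a standard error of 0.14, or 2.85-fold on the log2 scale used.

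At 1425027_s_at the WT embryos read 42.1, 63.6, 50.1, 28.5 and 35.7. The KO embryos read 254, 254, 399, 246 and 165. The groups again did not overlap, and the WT values lay near the array medians of 39.9 to 43.5, so that this probe set was dim in WT embryos. The level went from 5.88 ± 0.32 to 8.08 ± 0.42 (SD, n = 5), a difference of 2.20 with a standard error of 0.22. The size depends on the pseudocount at this brightness, 2.55 with 1 and 1.57 with 64. In Affymetrix naming the ending _s_at marks probes shared by several transcripts, which can belong to more than one gene. Of all tested probe sets, 2.33% had no overlap between the genotypes and 1.01% had every KO embryo above every WT embryo.

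At 1435141_at the WT embryos read 133, 135, 110, 149 and 136. The KO embryos read 346, 147, 265, 274 and 143. KO1, KO3 and KO4 stood above every WT embryo, while KO2 and KO5 read less than WT4. The WT level was 7.21 ± 0.14 and the KO level 7.90 ± 0.53 (SD, n = 5), a difference of 0.69 with a standard error of 0.23.

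At 1435142_at the WT embryos read 52.8, 63.1, 54.1, 57.6 and 49.7. The KO embryos read 93.9, 61.9, 106, 74.9 and 66.8. All but KO2 lay above the WT embryos, and the levels were 6.16 ± 0.10 and 6.57 ± 0.27 (SD, n = 5), a difference of 0.42 with a standard error of 0.13. At each of the 4 probe sets the SD among KO embryos was larger than that among WT embryos.

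The KO embryos kept much of their order from one Sft2d2 probe set to the next. KO3 was the highest KO embryo at 3 of the 4 probe sets and KO1 at the remaining one, 1435141_at. KO5 was the lowest at 3 and KO2 at the other. Averaged over the 4 probe sets, the distance above the WT mean was 1.61 in KO3, 1.41 in KO1, 1.24 in KO4, 0.95 in KO2 and 0.81 in KO5. KO1, KO3 and KO4 were above every WT embryo at 4 probe sets, KO5 at 3 and KO2 at 2. In each of the 5 KO embryos the distance was larger at 1425026_at than at 1435141_at or 1435142_at, and larger still at 1425027_s_at. The 4 probe sets read the same embryos and are not replicates of one another.

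**Figure D2:**
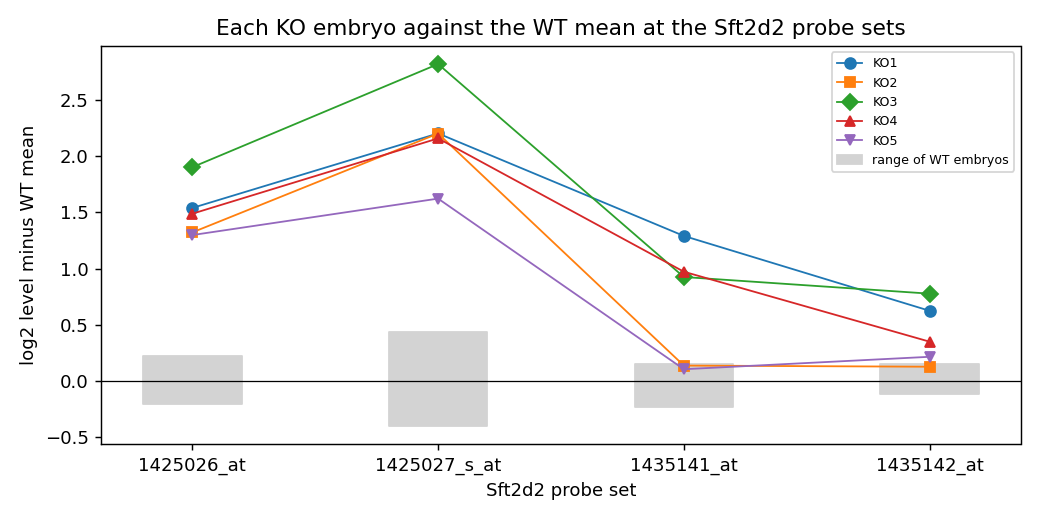
Log2 level of each KO embryo minus the WT mean at the 4 Sft2d2 probe sets, with a line per embryo and grey boxes for the range of the 5 WT embryos. KO3 is highest at 3 probe sets, and KO2 and KO5 fall into the WT range at 1435141_at.

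The WT embryos did not share such an order. WT4 and WT5, the arrays with the widest actin gap from 3′ to middle, were the highest WT embryos at 1425026_at (144 and 154) and the lowest at 1425027_s_at (28.5 and 35.7), although both probe sets are annotated to one source. Leaving both embryos out gave differences between genotypes of 1.63 at 1425026_at and 2.0 at 1425027_s_at. Taken within the high-bioB set and then within the low-bioB set, the genotypes differed by 1.55 and 1.38 at 1425026_at, 2.0 and 2.49 at 1425027_s_at, 0.78 and 0.57 at 1435141_at, and 0.35 and 0.48 at 1435142_at. The direction was the same in both technical sets at each of the 4 probe sets. At 1425026_at and 1425027_s_at the genotypes do not overlap, so no split of the arrays could turn it, and nothing is read from this. The mean of the trophectoderm markers did not overlap between the genotypes and was lower in KO embryos, but its 6 genes differed in sign. Krt8, Krt18 and Tfap2c were lower without overlap (-2.94, -2.20 and -1.37), while Cdx2 (-0.28), Gata3 (0.47) and Eomes (0.26) overlapped. Their part in the difference of Sft2d2 was not tested.

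The levels of Sft2d1 overlapped between the genotypes. Its probe set 1460656_a_at, whose ending marks probes that match alternative transcripts of 1 gene, read 238, 207, 179, 155 and 141 in WT1 to WT5. It read 220, 276, 169, 222 and 240 in KO1 to KO5. Only KO2 and KO5 exceeded the highest WT embryo, WT1, and KO3 lay inside the WT range. The WT level was 7.62 ± 0.28 and the KO level 7.90 ± 0.24 (SD, n = 5), a difference of 0.28 with a limma 95% interval of -0.08 to 0.64. The interval leaves room for no difference and for a rise of about the size seen at 1435142_at of Sft2d2. It ends below the 1.51 at 1425026_at, but sizes at different probe sets are not directly comparable. Those of Sft2d2 alone ran from 0.42 to 2.20. KO3, the embryo with the highest Sft2d2, had the lowest Sft2d1 among KO embryos.

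Sft2d3 was dim in every embryo. Its probe set 1435278_at read 37.5, 29.1, 29.8, 49.4 and 36.4 in WT1 to WT5. It read 36.6, 41.0, 31.6, 47.8 and 28.0 in KO1 to KO5. The ranges were nearly the same, around the array medians. The WT level was 5.70 ± 0.22 and the KO level 5.72 ± 0.21 (SD, n = 5), a difference of 0.02 with a limma 95% interval of -0.29 to 0.32. At this brightness a change in the transcript may be compressed on the scale used, and the values do not show whether Sft2d3 was expressed.

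**Figure D3:**
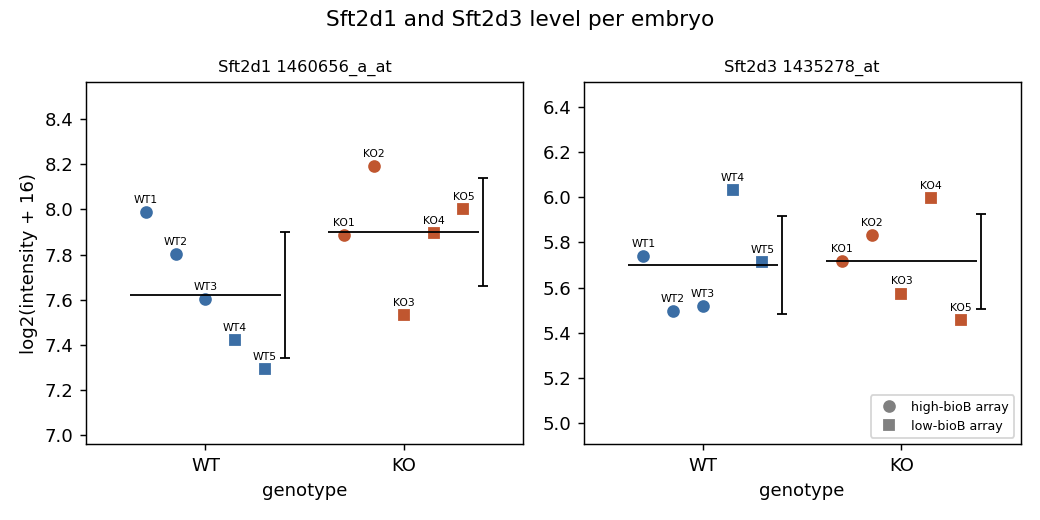
Level of Sft2d1 and Sft2d3 as log2(intensity + 16) in each of the 10 embryos, by genotype; circles are high-bioB and squares low-bioB arrays, lines are means and bars are the SD (n = 5). The genotypes overlap for both genes, and among WT embryos Sft2d1 is lowest in WT4 and WT5.

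The difference between the technical sets of arrays was not used in picking the family and could be tested. With genotype in the model, 0 of the 6 probe sets passed an adjusted limma p of 0.05 for the low-bioB minus the high-bioB set, where 0% of all probe sets passed and 2965 had an unadjusted p under 0.05. As no tested probe set passed, the 0 of 6 is not particular to the family. Sft2d1 had the largest difference, -0.33 with a standard error of 0.13 (limma, unadjusted p = 0.0315, adjusted p = 0.340). It was the only member under 0.05 before adjustment. Its high-bioB arrays averaged 7.80 in WT and 8.04 in KO embryos, and its low-bioB arrays 7.36 and 7.81. The Sft2d2 probe sets differed by -0.25 to 0.22 and Sft2d3 by 0.09 (limma, adjusted p between 0.513 and 0.993). The interaction of genotype and set passed for 0 of the 6 probe sets by limma (adjusted p between 0.584 and 0.888), with 0 of 23174 passing in all and 2923 at an unadjusted p under 0.05.

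The genes with which Sft2 works in yeast and the wider machinery of Golgi traffic were read from 5 lists. Of 130 names, 129 were in the table and 123 were tested, each gene at its brightest probe set. Over all probe sets 1 of the 123 genes passed an adjusted limma p of 0.05, and it was lower in KO embryos, where 0.487% of all 12518 genes passed. At an unadjusted p under 0.05 there were 10 higher and 4 lower, where 11.1% of all genes lay under it. The median difference over these lists was 0.07, with 79 of 123 above 0, beside -0.01 and 48.8% over all genes.

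The Golgi membrane proteins of the Got1, Yip1 and Tvp families stand closest to Sft2, since Got1 overlaps with it in function. Of 12 tested, 0 passed by limma and 2 had an unadjusted p under 0.05, and the median difference was 0.09. Golt1b, of the Got1 family, differed by -0.27 with overlap (limma, adjusted p = 0.863). Yif1b, a partner of the Yip1 proteins in traffic between the endoplasmic reticulum and the Golgi, read 611, 934, 1509, 620 and 707 in WT and 1822, 1490, 1450, 1989 and 2679 in KO embryos. WT3 alone overlapped the KO embryos. The difference was 1.14 (limma, adjusted p = 0.127). Of 23 alternatives it passed only in the one without WT3, the embryo that overlapped (1.36, limma, adjusted p = 0.0441), and in the others the adjusted limma p ran from 0.0967 to 0.641, the highest in the high-bioB set alone (0.78). Its relative Yif1a differed by 0.43 and Yipf5 by 0.37 (limma, adjusted p = 0.479 and 0.540). The other probe sets of Yif1a differed by 0.79 and 0.32, and those of Yipf5 by 0.62 and -0.02.

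The SNARE list holds the fusion proteins with which the family is linked. Of 39 tested, 0 passed by limma, with 5 higher and 2 lower at p under 0.05 before adjustment, and the median difference was 0.06. Stx5a, syntaxin 5, differed by 0.03 with overlap (limma, adjusted p = 0.990). Bnip1, a SNARE of retrograde transport into the endoplasmic reticulum, read from 42.3 to 68.7 in WT embryos and from 70.6 to 118 in KO embryos, without overlap (difference 0.69, limma, adjusted p = 0.113). Use1, which acts in the same complex, read from 495 to 629 in WT embryos and from 659 to 1154 in KO embryos, also without overlap (difference 0.46, limma, adjusted p = 0.334). Its other probe sets differed by 0.72 and 0.08, both with overlap. Stx18 and Sec22b, listed SNAREs of that complex, differed by 0.08 and 0.05 with overlap (limma, adjusted p = 0.964 and 0.987). Stx3, a syntaxin of the apical plasma membrane, differed by -1.07 at its brightest probe set (limma, adjusted p = 0.323) and by -0.04 and -0.27 at its other probe sets.

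Among the Golgi tethers, 0 of 31 passed by limma, 3 were higher at an unadjusted p under 0.05 and the median difference was 0.12. Vps54, a subunit of the GARP tether that receives vesicles from endosomes, read from 351 to 470 in WT embryos and from 517 to 772 in KO embryos, without overlap (difference 0.56, limma, adjusted p = 0.147). Its other probe sets differed by 0.06 and -0.30. The GARP subunits Vps51, Vps52 and Vps53 differed by -0.11, -0.33 and 0.14 with overlap (limma, adjusted p between 0.927 and 0.962). Sys1, which recruits the GTPase Arfrp1 to the Golgi, read from 986 to 1407 in WT embryos and from 1502 to 1879 in KO embryos, without overlap (0.37, limma, adjusted p = 0.279). Its other probe sets differed by 0.06, 0.09 and -0.24. Blzf1, the golgin-associated protein golgin-45, differed by 0.29 (limma, adjusted p = 0.485) and by -0.06 at its other probe set.

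Of 11 retromer and sorting nexin genes, which recycle receptors from endosomes, 0 passed by limma, 0 had an unadjusted p under 0.05 at the brightest probe set and the median difference was 0.09. Snx6, Snx5 and Snx1, subunits of the retromer-linked sorting nexin complex, differed by 0.35, 0.40 and -0.49 (limma, adjusted p between 0.530 and 0.562). Other probe sets of Snx6 differed by 0.36 to 0.58 and those of Snx5 by 0.03 to 0.71. The unadjusted p was under 0.05 at 1 of these for each gene (0.0134 for Snx6, 0.0360 for Snx5; limma, adjusted p = 0.297 and 0.438).

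Of 30 coat and cargo receptor genes tested, 1 was lower and 0 higher by limma, and the median difference was 0.05. The lower one was Kdelr3, a receptor that returns KDEL-bearing proteins from the Golgi to the endoplasmic reticulum. It read 162, 124, 70.9, 70.7 and 64.1 in WT and 26.1, 27.6, 33.4, 31.0 and 32.0 in KO embryos, without overlap. It fell by 1.24 (limma, adjusted p = 0.0457) to a KO level of 5.52, under the filter level of 5.55, so it was tested only through its WT level of 6.76, and nothing is read from this count. With no level filter it did not pass (limma, adjusted p = 0.0742). The call passed in 5 of 22 alternatives, and among the 10 fits that leave out 1 embryo it was lost in all but the one without WT1 (limma, adjusted p up to 0.106, without WT2). Tmed9, a cargo receptor of early secretory vesicles, differed by -0.46 and Sec16a, which organises endoplasmic reticulum exit sites, by -0.30 (limma, adjusted p = 0.333 and 0.503). The remaining probe set of each differed by -0.29 and -0.26.

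**Figure D4:**
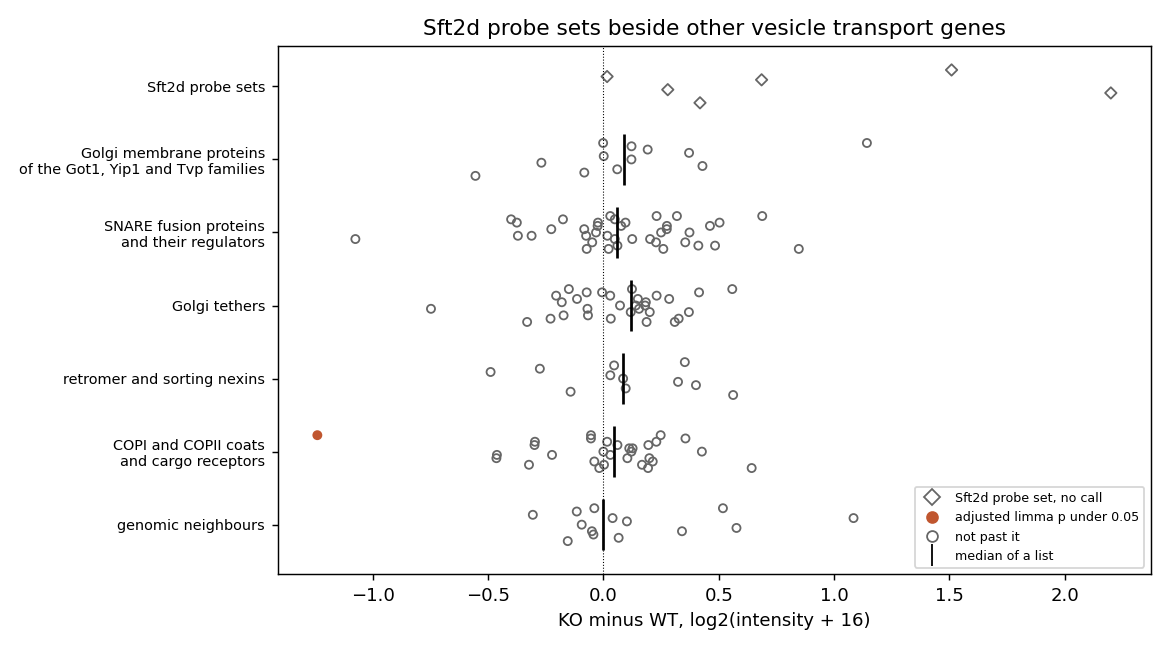
KO minus WT difference on the log2(intensity + 16) scale for the 6 Sft2d probe sets and, at the brightest probe set, each tested gene of the 5 vesicle transport lists and the genomic neighbours; diamonds are Sft2d probe sets, shown with no call, filled circles passed an adjusted limma p of 0.05 and vertical lines are list medians. Kdelr3 is the filled circle at -1.24, and the diamonds run from 0.02 at Sft2d3 to 2.20 at 1425027_s_at of Sft2d2.

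Genes next to the members in the genome were read as well, taking the 3 protein-coding RefSeq genes on each side of each member. Of 18 such genes, 17 were in the table and 14 were tested, of which 0 passed by limma and 1 had an unadjusted p under 0.05. The median difference was 0.0. That one was Tiprl, the next gene on one side of Sft2d2, a regulator of type 2A phosphatases, which read from 166 to 420 in WT embryos and from 344 to 464 in KO embryos (difference 0.52, limma, adjusted p = 0.478) and differed by 0.51 at its other probe set. Tbx19, a T-box factor of the pituitary and the next gene on the other side, differed by 0.07 (limma, adjusted p = 0.928). Gpr161, a receptor of the primary cilium that lies beyond Tiprl, differed by 1.08 with wide spread in both genotypes (SD 0.80 and 1.10, n = 5; limma, adjusted p = 0.565) and by 0.60 at its other probe set.

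The genes most like Sft2d2 over the 10 embryos were found by the root mean square difference between level profiles, each centred on its own mean, from that of 1425026_at. The 19861 compared probe sets, which were tested, had a single gene symbol and lay outside the family, had a median distance of 0.82 log2 units. The 5 nearest genes were Zfp639, a zinc finger protein (0.31), Reep5, which shapes the endoplasmic reticulum (0.32), Cgrrf1 (0.33), Dtl, a substrate receptor of a cullin ubiquitin ligase (0.35), and Mcrip1 (0.36). Zfp639 read 114, 102, 85.2, 75.4 and 89.8 in WT and 220, 220, 274, 360 and 184 in KO embryos. Reep5 read from 72.4 to 94.4 in WT embryos and from 129 to 306 in KO embryos. Among KO embryos it was, like 1425026_at, highest in KO3 and lowest in KO5. Picking genes for likeness over these embryos favours such an order, and nothing is read from it. The differences of the 5 genes between genotypes were 1.27, 1.11, 1.20, 1.03 and 0.97 in the order given. The WT level of Dtl, 5.44, was under the filter level. The likeness rests mostly on the shared step between genotypes, by which Sft2d2 was picked, so these differences are a description and no test of them is given.

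The differences of the family were also computed under 23 other ways of processing the values, such as another scaling, filter, pseudocount or set of arrays. They ran from 1.26 to 1.63 at 1425026_at, from 1.57 to 2.55 at 1425027_s_at, from 0.53 to 0.83 at 1435141_at and from 0.27 to 0.51 at 1435142_at. For Sft2d1 they ran from 0.10, without WT4 and WT5, to 0.45, in the low-bioB set alone. For Sft2d3 they ran from -0.19 to 0.19.

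**Figure D5:**
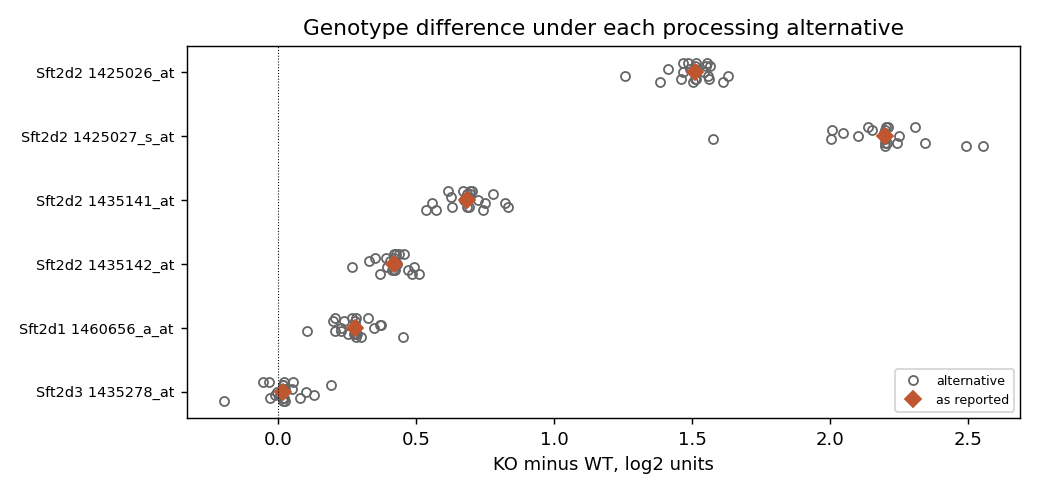
KO minus WT difference in log2 units at the 6 Sft2d probe sets, as reported (diamond) and under each of 23 processing alternatives (circles). The Sft2d2 probe sets stay above 0 in all of them, and Sft2d3 lies on both sides of 0.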

How the data were processed

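Each of 10 single mouse embryos was read on its own Affymetrix array. Per the labels' protocols, cDNA from single embryos was amplified after Kurimoto et al., which yields products near the 3′ end of transcripts, and labelled with biotin. The deposited values are intensities on a linear scale, as judged from the values. The series' description names GeneSpring GX, while, in the sources used here, background correction, probe summary and scaling are not given. The platform annotation named the genes (30854 probe sets had 1 symbol, 781 several and 6988 none), checked by identifier against the RefSeq gene table of GRCm38.p6, which also gave the genomic neighbours. Promoters came from RefSeq, GRCm38.p6, and matched 2 of the 3 members.

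Of 38676 probe sets, 53 controls were left out, and probe sets under the 40th percentile of mean log2(intensity + 16) were not tested. The genotype contrast was fitted by lmFit and eBayes of limma 3.58.1 (R 4.3.3) without covariates, two-sided, and p was adjusted by Benjamini-Hochberg over every tested probe set. The script was tested on simulated data. The bioB set of each array came from the widest gap (1.66) in the mean of 6 bioB control probe sets. Named genes are the members, Klf5, the 3 list genes of smallest p and any that passed, the neighbours and the 5 genes most like Sft2d2. Golt1b and Stx5a were added as the counterparts of Got1 and Sed5. Stx18, Sec22b, Vps51, Vps52 and Vps53 were added as complex partners of named genes. The members and lists were chosen with earlier results of these data known. The embryo number did not pair the samples (correlations of same-numbered deviations -0.03 to 0.18). Alternatives covered scaling, filter, pseudocount, variance prior, array weights, embryo number or bioB set as a block, each bioB set alone, and leaving out WT4 with WT5 or each embryo in turn. Protein sequences were not used here.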

Additional observations from a re-analysis of the deposited data

Results flagged for a closer look

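Among the 46 probe sets of the members, Klf5, the named transport genes, the neighbours and the nearest patterns, 5 had a single embryo far from the other 4 of its genotype. Chance gives about 1 in 20 of the 92 groups examined. None of these 5 is a member of the Sft2d family. Golt1b, Stx5a and the added complex partners of named genes were not examined for this. Sys1 was lowest in WT1 (9.97, the next embryo at 10.34). Blzf1 was lowest in WT5 (6.58, the next at 7.02), and Sec16a was lowest in WT5 (9.62, the next at 9.84). Among KO embryos, 2 neighbours of Sft2d3 had a high embryo, Lims2 in KO2 (7.12, the next at 6.53) and Myo7b in KO3 (7.52, the next at 7.02).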

How the results depend on the processing

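The difference kept its direction at each of the 4 Sft2d2 probe sets and at Sft2d1 under all 23 alternatives. That of Sft2d3 ran from -0.19 to 0.19. At Sft2d1 it was 0.28 as reported and 0.10 without WT4 and WT5, the lowest WT embryos there. At 1425026_at and 1425027_s_at, where the genotypes do not overlap, no choice of arrays could turn the direction. With a pseudocount of 64 the differences of Sft2d2 were 1.26 at 1425026_at and 1.57 at 1425027_s_at. The count of passing probe sets was 24 with the embryo number as a replicate block, 1 in the high-bioB set alone and 0 in the low-bioB set alone by limma (3508 at an unadjusted p under 0.05, no other tool run). It was 45 (without KO2) to 63 (without WT3) when 1 embryo was left out. The embryos share only a number, and 2 of 5 WT embryos correlated best with the KO embryo of their own number. The Klf5 difference in the low-bioB set alone was -5.05 and no longer passed. For the coat list, the count of passing genes was 0 with quantile normalization, median centring, no level filter, the 60th percentile filter, a pseudocount of 64, either block and either set alone, and 0 to 1 when 1 embryo was left out. The 60th percentile filter removed Kdelr3, at the 57.4 percentile, before testing, so there the 0 is no lost call. For the Got1, Yip1 and Tvp list it was 0 to 1 when 1 embryo was left out. Signs turned in the low-bioB set alone for Snx1 (0.11) and Tbx19 (-0.033). The difference between array sets turned at 1435142_at with quantile normalization (-0.032) and median centring (-0.028). Leaving out 1 embryo gave -0.11 to 0.086 there (below 0 without WT1, WT4, KO2 or KO3), -0.14 to 0.30 at 1435141_at (below 0 without KO2 or KO4) and -0.012 to 0.16 for Sft2d3 (below 0 without WT4). The causes were not tested. Brightness close to the array median limits Sft2d3 in both genotypes and 1425027_s_at of Sft2d2 in WT embryos.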

Other observations

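After the mean of each genotype was removed, the 5 genes whose remaining variation among embryos lay nearest to that of Sft2d2 at 1425026_at were Klhdc10, Krt28, Bace1, Nos1ap and Pa2g4. Their root mean square distances were 0.05, 0.07, 0.08, 0.08 and 0.09 log2 units, beside a median of 0.33 over 19861 probe sets and a spread of 0.19 of Sft2d2 itself. Pa2g4, a growth-regulating RNA-binding protein picked here for this likeness, was lower in KO embryos (790 to 1087 in WT, 325 to 463 in KO). Its difference was -1.25 (limma, adjusted p = 0.00522). The likeness holds for 1425026_at and not for every Sft2d2 probe set. WT4 and WT5 were the highest WT embryos for Pa2g4 (1079 and 1087) and the lowest at 1425027_s_at (28.5 and 35.7). They were also the highest WT embryos for Klhdc10, Bace1 and Nos1ap, and WT5 was the highest for Krt28. These are the arrays with the widest actin gap, and its part in the likeness was not tested. How near the closest genes lie for other profiles was not tested.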
